A study of Canis lupus familiaris with 20 samples.

Results

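Serum amyloid A proteins are small apolipoproteins of the acute-phase response. The liver releases them in large amounts when interleukin-6, interleukin-1 and tumour necrosis factor signal inflammation, they travel on high-density lipoprotein, and tissue outside the liver, joint tissue included, can also make them. In mammals their genes lie side by side in a cluster of short, related copies. The 4 genes described here were chosen by position: they are all the entries of the count table on dog chromosome 21 whose lowest start lies between 40.62 and 40.71 Mb in CanFam3.1, 4 of 24580 genes in all. The genes are called A to D below, in order of position. They were proposed as a serum amyloid A cluster from that position alone. The count table gives no symbols, and 0 of its identifiers were found in a RefSeq gene table of the assembly UU_Cfam_GSD, so no gene is given a name below. In that assembly, 6 protein-coding genes lie between SAAL1 and HPS5 on chromosome 21, and 3 of them carry the symbol SAA1 or the synonym SAA. Whether that interval corresponds to the 4 genes here was not tested, since positions were not mapped between the assemblies. The genes came to attention because genes within the window were lower at day 14 than at day 9 in affected dogs. Their levels in affected dogs are therefore given as a description, with no test.

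RNA was sequenced from the cartilage of the epiphysis of the T12 vertebra in 20 young dogs of a naturally occurring model of mucopolysaccharidosis VII (MPS VII), a lysosomal storage disease in which loss of the enzyme encoded by GUSB leaves glycosaminoglycans undegraded. The 4 groups of 5 dogs were MPS VII dogs at postnatal day 14, homozygous for the missense change R166H in GUSB, heterozygous control dogs at day 14, MPS VII dogs at day 9 and heterozygous control dogs at day 9. The controls therefore carry 1 copy of the same change. Tissue from both ends of the vertebra was pooled within each animal, controls were litter-matched as a group, and neither the litter nor the sex of a library is given in the labels. Libraries held 15772761 to 28028365 counts, with 15772761 to 22471728 at day 14 in MPS VII dogs, 16975358 to 20766128 at day 14 in controls, 21419930 to 27102423 at day 9 in MPS VII dogs and 22703756 to 28028365 at day 9 in controls, so age and depth went together. The tissue could not be checked against marker genes, since the identifiers have no symbols here.

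One library stood apart from its group over the whole table. In MPS VII day 9 replicate 3, a number given in order of accession, 1543 of 14550 tested genes lay far above and 399 far below the other 4 libraries of the group by Dixon's criterion, against 43 to 180 and 16 to 94 genes in each of the other 19 libraries. The gene with the most counts in the table (chromosome 27, 6756994 to 6787846) took 7.48% of the library, against 25.4% to 33.2% in the other 4 of its group and 10.4% to 35.1% over the other 19. Results that rest on this library are given with and without it.

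The 4 genes shared an exon length, which played no part in their choice but was found by looking for lengths common to all 4. They differed in total exon length, and gene C in its number of exons. Gene A (ENSCAFG00000029553, minus strand, chromosome 21 from 40627471 to 40634004) and gene B (minus strand, 40647281 to 40650792) each have 4 exons, with 2859 and 1035 bases of exon. Gene C (plus strand, 40663392 to 40704729) has 7 exons with 1574 bases. Gene D (ENSCAFG00000015206, plus strand, 40680858 to 40685074) has 4 exons with 441 bases and lies between the fourth and the fifth exon of gene C. All 4 genes hold an exon of 139 bases, found in 938 of the 24580 genes of the table (3.82%), and in transcript order it is the third exon of each 4-exon gene. It is also the third and again the sixth exon of gene C, where an exon of 92 bases stands before the first copy and one of 91 bases before the second. Genes B and D likewise have an exon of 92 bases before it, and gene A one of 105 bases. Counts of gene C therefore pool stretches on both sides of gene D. Related copies can share reads, and the handling of reads that match several genes is not given in the sources used here. The division of counts among the 4 genes is uncertain.

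**Figure D1:**
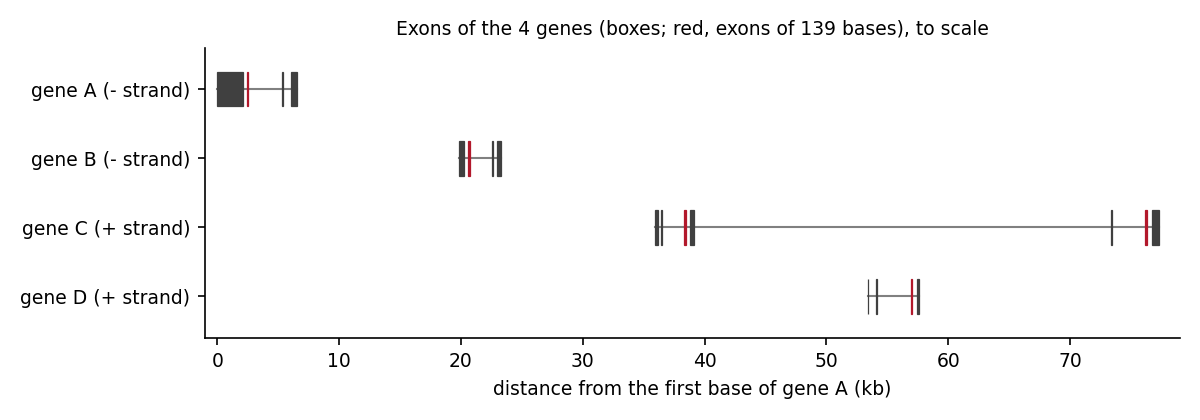
Exons of the 4 genes (boxes, to scale) by distance in kb from the first base of gene A, 1 line per gene with its strand; exons of 139 bases are red. Each gene holds a red exon, gene C holds 2, and gene D sits inside the long intron of gene C.

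No gene of the window missed the minimum of 10 counts in total: they held 794, 167, 368 and 852 counts over the 20 libraries, in order of position. The 3 genes A, C and D passed the filter on low counts, and gene B did not. All were scarce. On the CPM scale (read counts scaled to library size), their means over the 20 libraries were 1.73, 0.4001, 0.804 and 1.85, and 17.3%, 2.59%, 9.15% and 18.0% of the tested genes had a lower mean. Per kilobase of exon gene D was the most abundant, at 4.19 CPM per kb, followed by gene A at 0.606, gene C at 0.511 and gene B at 0.387. The nearest gene on each side of the window was far more abundant.

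Gene A held 1.19, 1.05, 0.670, 0.848 and 0.679 CPM in MPS VII dogs of day 14, and 1.37, 2.88, 1.47, 1.31 and 0.908 CPM in controls of day 14. In MPS VII dogs of day 9 it held 0.999, 0.668, 13.04, 0.846 and 3.22 CPM, and in controls of day 9 0.418, 0.896, 0.969, 0.580 and 0.627 CPM. The high values of day 9 were those of MPS VII replicates 3 and 5, while the other 3 MPS VII libraries lay between 0.668 and 0.999 CPM, a range that overlapped the controls. Gene D, the most abundant per kilobase, held 0.551, 1.19, 0.335, 0.636 and 0.436 CPM in MPS VII dogs of day 14, and 0.363, 1.01, 1.87, 1.36 and 1.69 CPM in controls of day 14. At day 9 its level was 1.997, 1.04, 15.3, 1.22 and 2.11 CPM in MPS VII dogs, and 0.907, 1.11, 1.19, 1.86 and 0.851 CPM in controls. Again replicate 3 stood alone, and the ranges of all other libraries overlapped between genotypes at both ages.

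Gene C held 0.367, 0.238, 0, 0.583 and 0.0485 CPM in MPS VII dogs of day 14, and 0.685, 0.961, 1.08, 1.22 and 0.908 CPM in controls of day 14. Its 0 is a count of 0, which allows up to 0.167 CPM at the limit of 3 counts. This limit takes counts as independent, and would be higher if both mates of a pair were counted. At day 9 it held 0.318, 0.251, 5.57, 0.376 and 0.735 CPM in MPS VII dogs, and 0.558, 0.555, 0.572, 0.696 and 0.358 CPM in controls. At day 14 every MPS VII library lay below every control library. At day 9 replicate 3 was the highest of all 20 libraries, while 2 of the other 4 MPS VII libraries lay below all controls.

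Gene B differed from the other 3 in where its reads fell. It held 4, 0, 0, 2 and 0 counts in MPS VII dogs of day 14, against 6, 14, 53, 12 and 31 counts in controls of day 14. At day 9 it held 0, 0, 8, 0 and 4 counts in MPS VII dogs, against 12, 9, 4, 4 and 4 counts in controls. Of the 10 MPS VII libraries, 6 held none of its reads, and a count of 0 allows 0.125 to 0.167 CPM in them at the same limit. In replicate 3 it reached 0.316 CPM, the highest of its group but the seventh of the 20 libraries, whereas genes A, C and D were each highest of all in that library. In bulk tissue, fewer cells of a type and less RNA per cell cannot be told apart.

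**Figure D2:**
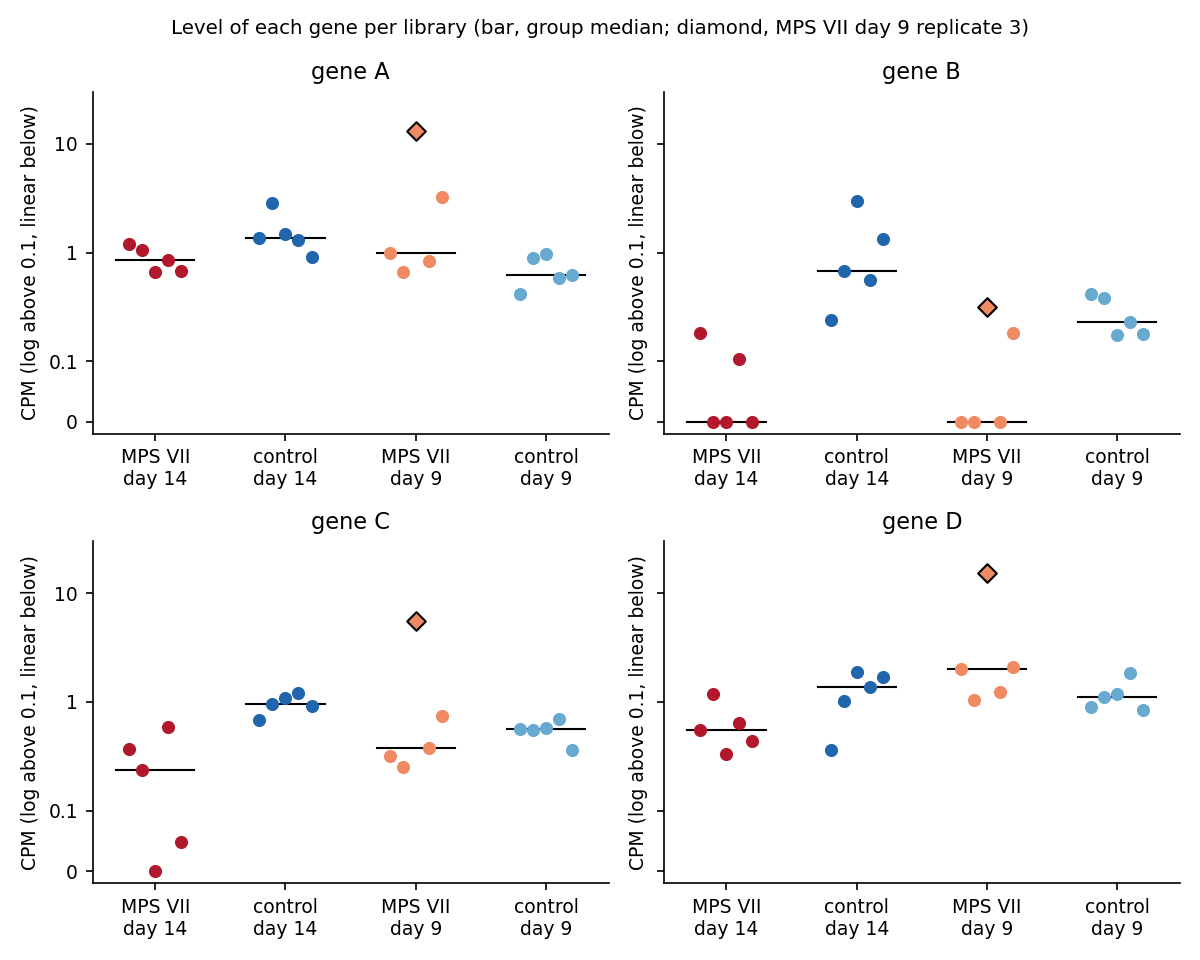
CPM of each gene in every library (y axis, logarithmic above 0.1 and linear below), by group of 5 dogs, with the group median as a bar and MPS VII day 9 replicate 3 as a diamond. The diamond stands at 13.04, 5.57 and 15.3 CPM in genes A, C and D, above all other libraries, and at 0.316 CPM in gene B.

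Of the 1173 counts that the 4 genes held in MPS VII dogs of day 9, 865 (73.7%) came from replicate 3, and so did 39.7% of the 2181 counts over all libraries. Summed over the 4 genes, the level ran from 1.00 to 2.47 CPM with a median of 2.17 in MPS VII dogs of day 14, and from 2.66 to 7.43 CPM with a median of 4.84 in controls of day 14. At day 9 it ran from 1.96 to 34.2 CPM with a median of 3.31 in MPS VII dogs, and from 2.02 to 3.36 CPM with a median of 2.91 in controls. At day 14 the highest MPS VII library (2.47 CPM) lay below the lowest control (2.66 CPM), though genes A and D alone overlapped between genotypes. Of all tested genes 9.83% lay apart in this direction at day 14. At day 9 only replicates 3 and 5 of the MPS VII dogs lay above the controls.

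Within replicate 3 the 4 genes took these shares of the cluster's counts. Gene A took 38.2% (Wilson 95% interval 35.0% to 41.4%), against 30.1% to 51.5% in the other 4 libraries of the group. Gene D took 44.6% (41.3% to 48.0%), against 33.8% to 60.3%, and gene B 0.925% (0.469% to 1.81%), against 0% to 2.94%. Gene C took 16.3% (14.0% to 18.9%), against 9.59% to 15.4%, so that its interval reached below the highest of the others. These intervals take every count as independent and cover no spread between animals. If both mates of a pair were counted, as the many even counts would allow, they are too narrow. The share of gene B was 2.58% ± 3.70 in MPS VII dogs of day 14 and 20.4% ± 13.3 in controls of day 14, and 0.773% ± 1.28 in MPS VII dogs of day 9 and 10.6% ± 5.02 in controls of day 9 (SD, n = 5 each).

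The day 9 level of replicate 3 was set beside that of all tested genes. On log2 CPM it exceeded the median of the other 4 libraries of its group by 3.70 in gene A, 3.69 in gene C and 3.21 in gene D. Of the 14550 tested genes 44, 45 and 66 (0.302%, 0.309% and 0.454%) had a difference at least as high. More than 2-fold higher levels were found in 1615 genes (11.1%) and more than 2-fold lower levels in 1675 (11.5%). This library also had the low share of the most abundant gene given above, and the part of that difference in the levels of the cluster was not tested.

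**Figure D3:**
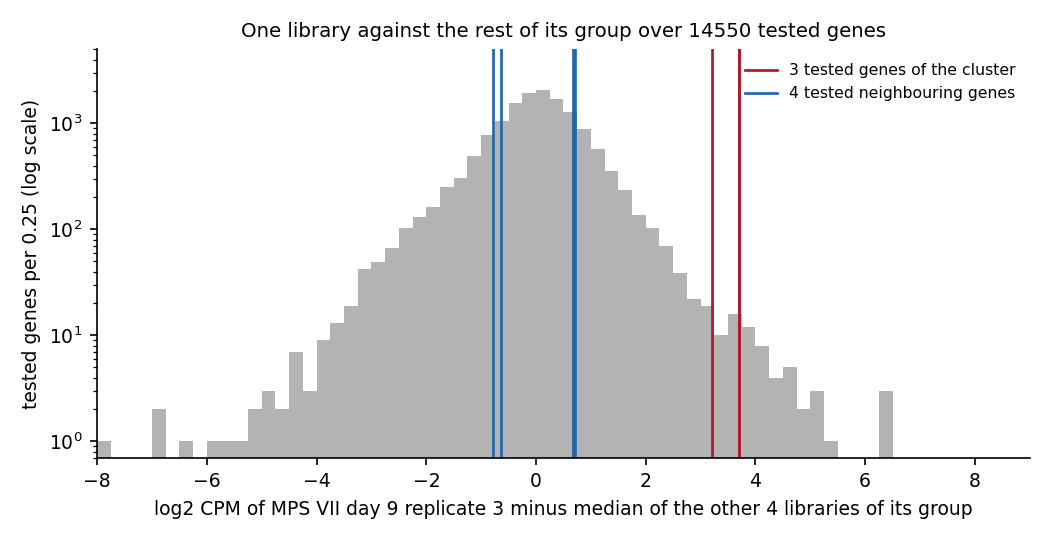
Histogram of all 14550 tested genes by the log2 CPM of MPS VII day 9 replicate 3 minus the median of the other 4 libraries of its group (y axis, genes per bin of 0.25, log scale). The 3 tested genes of the cluster (red) lie at 3.21 to 3.70 and the 4 tested neighbouring genes (blue) at -0.79 to 0.71.

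Day 14 was first compared with day 9 in MPS VII dogs, the contrast that drew attention to the genes. Gene A averaged 0.887 ± 0.230 CPM at day 14 and 3.75 ± 5.29 CPM at day 9 (SD, n = 5 each), with a log2 fold change of -2.08 ± 0.63 (SE). The log2 fold change was -2.53 ± 0.79 for gene C and -2.77 ± 0.66 for gene D. All 3 are among the 9.92% of tested genes called lower at day 14, and such calls drew attention to the window, so they are a description. In the fit without replicate 3, which held all 4 genes of the cluster, 1 of them was called. Among all tested genes, 1443 of 14550 were called lower with all libraries, and 1543 of 14684 without that library. Both sets of calls come from the contrast that drew attention to the genes, so their change is a description and no test. Without replicate 3 the log2 fold changes of genes A, C and D were -0.66 ± 0.43, -0.72 ± 0.58 and -1.30 ± 0.43. For gene B the log2 fold change was -0.70 ± 1.06 with all libraries and no filter on low counts, and 0.37 ± 1.27 without replicate 3. Gene D averaged 0.630 ± 0.333 CPM in the 5 dogs of day 14 and 1.59 ± 0.540 CPM in the remaining 4 of day 9, and the ranges met only where day 14 replicate 2 (1.19 CPM) lay above day 9 replicate 2 (1.04 CPM).

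Genotype was compared at each age, with no test, since these comparisons contain the affected libraries that drew attention to the genes. At day 14 the log2 fold change of MPS VII against control dogs was -0.83 ± 0.64 for gene A, -1.94 ± 0.80 for gene C and -0.97 ± 0.67 for gene D. Gene B, fitted without the filter on low counts, had a log2 fold change of -4.17 ± 0.94, on 6 counts over the MPS VII libraries and 116 over the controls, 53 of them in control replicate 3. For genes B and C no MPS VII library of day 14 reached the lowest control. Of all tested genes 9.83% lay apart in this direction, and gene B was not one of the tested.

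At day 9 the size of the genotype difference, and for gene C its sign, depended on replicate 3. With all libraries the log2 fold change of MPS VII against control dogs was 2.43 ± 0.65 for gene A, 1.41 ± 0.72 for gene C and 1.89 ± 0.62 for gene D. Without replicate 3 it was 1.03 ± 0.44 for gene A, -0.38 ± 0.54 for gene C and 0.44 ± 0.41 for gene D. For gene B it was -1.44 ± 0.89 with all libraries and no filter, and -2.50 ± 1.04 without replicate 3. No gene of the cluster had libraries of day 9 that were apart by genotype (8.09% of tested genes were). MPS VII replicate 5 held 3.22 CPM of gene A and 2.11 CPM of gene D, and came next after replicate 3 within its group in all 4 genes.

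**Figure D4:**
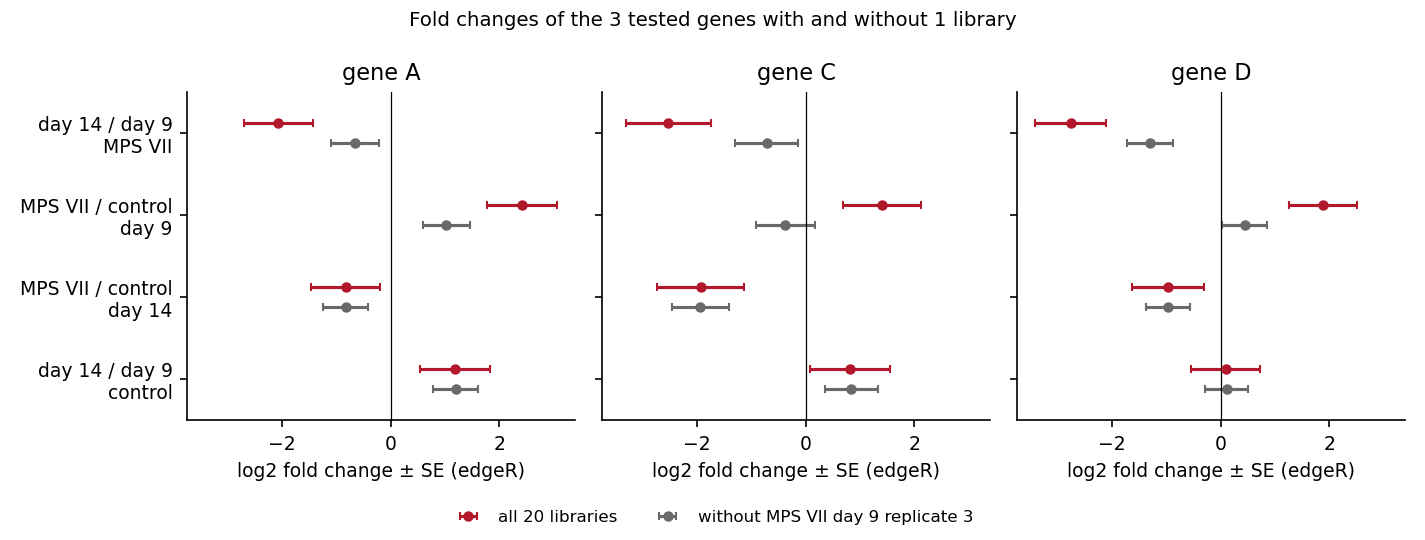
Log2 fold changes with SE (x axis) of the 3 tested genes in 4 comparisons (rows), from the fit with all 20 libraries (red) and without MPS VII day 9 replicate 3 (grey). The values of both comparisons that hold the library move towards 0 or past it without it, as from 1.41 to -0.38 for gene C at day 9, and those of the other comparisons stay within 0.03 of each other.

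The change with age in control dogs is the comparison whose libraries took no part in finding the genes, and it was tested. With all 20 libraries in the fit, 0 of the 3 tested genes passed an adjusted p of 0.05 (quasi-likelihood test of edgeR, p-values adjusted by Benjamini and Hochberg), 0 had an unadjusted p under 0.05, and 42.5% of all tested genes passed. Gene A averaged 1.59 ± 0.754 CPM in controls of day 14 and 0.698 ± 0.229 CPM in controls of day 9 (SD, n = 5 each), which is 1.18 ± 0.65 as log2 fold change (edgeR adjusted p = 0.148). Gene C averaged 0.9701 ± 0.199 CPM at day 14 and 0.548 ± 0.121 CPM at day 9, or 0.82 ± 0.73 as log2 fold change (edgeR adjusted p = 0.380). Gene D averaged 1.26 ± 0.599 CPM at day 14 and 1.18 ± 0.401 CPM at day 9, or 0.092 ± 0.63 as log2 fold change (edgeR adjusted p = 0.921). DESeq2 called 0 of them, with an unadjusted p under 0.05 for 1 and no adjusted p for 1.

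These tests depended on replicate 3 of the MPS VII dogs of day 9, which enters the dispersion shared by all groups. Without that library gene A had a log2 fold change of 1.20 ± 0.42 and passed (edgeR adjusted p = 0.0204), gene C did not (0.84 ± 0.49, edgeR adjusted p = 0.157), and 49.3% of all tested genes passed. With only the control libraries in the fit, both gene A (1.20 ± 0.36, edgeR adjusted p = 0.0111) and gene C (0.84 ± 0.32, edgeR adjusted p = 0.0382) passed, where 55.0% of tested genes did. The direction was higher at day 14 in each of these fits. In gene A, control day 14 replicate 2 held 2.88 CPM, and the other 4 controls of that age 0.908 to 1.47 CPM. Without it the log2 fold change was 0.87.

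Gene B averaged 1.16 ± 1.10 CPM in controls of day 14 and 0.278 ± 0.115 CPM in controls of day 9 (SD, n = 5 each), a log2 ratio of means of 2.07. An exact two-sided permutation test gave a p of 0.0238, where 0.00794 is the smallest that 5 against 5 allows. The ranges overlapped, since control day 14 replicate 1 held 0.242 CPM and 2 controls of day 9 held more. Without any 1 of the 5 controls of day 9 the exact permutation p was 0.103 to 0.119, at log2 ratios of 1.94 to 2.26. The groups are then unequal, and splits with the high day 14 values in the smaller group give larger differences of means than observed. These p-values therefore cannot show that the result depends on a control of day 9. In edgeR without a filter the log2 fold change was 2.03 ± 0.78 (edgeR adjusted p = 0.0527). Without the outlying MPS VII library the gene passed the filter, and its log2 fold change was 2.02 ± 0.69. It passed there only through controls of day 14, the group where it was high, so no p is given for that fit. Control day 14 replicate 3 held 3.01 CPM, and without it the log2 ratio was 1.34 with an exact permutation p of 0.0317. Those groups are unequal too, now with day 14 as the smaller group. That p therefore cannot show that the result holds without the library.

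The age change differed between genotypes by -3.26 ± 0.91, -3.35 ± 1.08 and -2.86 ± 0.91 on the log2 scale for genes A, C and D (change in MPS VII dogs minus change in controls, no test). Without MPS VII day 9 replicate 3 these differences were -1.86 ± 0.60, -1.56 ± 0.76 and -1.42 ± 0.58. For gene B the difference was -2.73 ± 1.34 with all libraries and no filter, and -1.64 ± 1.65 without that library.

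On log2 CPM, replicate 3 was less far from the rest of its group in the 4 tested genes beside the window than in genes A, C and D. By Dixon's criterion some of these neighbours also lay far above their group, as given at the end. The gene just before the window, from 40598093 to 40626149, ends 1321 bases short of gene A. It averaged 68.9 ± 6.97 CPM in MPS VII dogs of day 14, 71.7 ± 3.32 in controls of day 14, 46.3 ± 9.11 in MPS VII dogs of day 9 and 54.4 ± 2.24 in controls of day 9 (SD, n = 5 each). It was lowest of the 20 libraries in replicate 3, at 0.65 below the rest of its group on log2 CPM, and rose with age in controls by 0.40 ± 0.11 (edgeR adjusted p = 0.00690). The nearest gene on the other side starts at 40723033, 18303 bases after gene C ends, and was followed by genes starting at 40770966 and 40831917. In replicate 3 the gene starting at 40723033 was 0.71 above the median of its group and that at 40770966 was 0.68 above, both the highest of the 20 libraries, while that at 40831917 was 0.79 below, the lowest. With age in controls these 3 genes had log2 fold changes of 0.23, 0.29 and -0.25, none of which passed (edgeR adjusted p 0.140, 0.0882 and 0.190). Without MPS VII day 9 replicate 3 in the fit those at 40723033 and 40770966 did (edgeR adjusted p 0.0132 and 0.0153), and with only the control libraries in the fit all 3 did (edgeR adjusted p 0.0130, 0.00645 and 0.0250). Of all tested genes 49.3% passed in the first of these fits and 55.0% in the second. Both further genes before the window, starting at 40055703 and 40257310, held 91 and 20 counts in total and were not tested.

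Over the 20 libraries, Pearson's r of log2 CPM was 0.71 between genes A and C, 0.699 between genes A and D and 0.77 between genes C and D (Spearman's rho 0.58, 0.40 and 0.54). Over the other 19 libraries r was 0.46, 0.26 and 0.58, and rho 0.51, 0.30 and 0.46, so r changed more than rho without replicate 3. The libraries share age and depth, so these values are a description. The genes whose log2 CPM was most like that of gene D over the 20 libraries lay on chromosome 26 from 23485065 to 23505031 (r 0.91, rho 0.79), on chromosome 16 from 8508180 to 8528497 (0.88, 0.70) and from 27037832 to 27078252 (0.87, 0.78), and on chromosome 24 from 36633869 to 36662656 (0.87, 0.72). Without the 2 libraries farthest from the median of gene D, MPS VII day 9 replicate 3 and MPS VII day 14 replicate 3, r was 0.72, 0.65, 0.66 and 0.71. All 4 were highest in replicate 3: the gene on chromosome 26 held 103 CPM there, against 38.1 to 54.7 CPM in the other 19 libraries. Gene D was itself highest in that library, so a choice by r favoured genes that were high there. After group means were subtracted 4 other genes came first, with r of 0.88 each, and 0.72 to 0.79 without the 2 farthest libraries, so the list depends on how groups are treated.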

How the data were processed

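The deposited values are raw counts of 24580 Ensembl genes over 20 libraries, given with the position, strand and length of the exons, per the file headers. The authors sequenced stranded mRNA libraries in paired reads of 100 bases and mapped them to CanFam3.1 with the Ensembl annotation, per the labels' protocols. STAR 2.4.0j, HTSeq, edgeR, bcl2fastq and CASAVA 1.8.2 are listed, with no role, per the submitters' processing notes. The strand setting of the counting is not given in the sources used here. All count columns could be assigned to a sample by its title.

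The analysis used edgeR 4.0.16 under R 4.3.3: filterByExpr on the 4 groups kept 14550 genes and dropped 10030, libraries were scaled by TMM, and 1 quasi-likelihood fit with robust estimation over all 20 libraries gave every comparison, adjusted over all tested genes at 0.05. SE is the log2 fold change over the root of its F statistic. CPM are counts over TMM-scaled library sizes. For log2 CPM a prior count of 2 was added. A gene below the filter was compared by exact permutation of CPM. DESeq2 1.42.0 and the other alternatives are given at the end, and the fit was tested on simulated counts. P-values measure the spread between libraries taken as separate animals. Depth was 15772761 to 28028365 counts per library. Per library, 65.2% to 76.4% of counts under 200 above 0 were even, which counting both mates of a pair would give, so a fit used halved counts.

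The text describes every gene of the window with at least 10 counts in total, the 3 nearest such genes on each side, and the 4 tested genes most like the most abundant member by Pearson's r. Members and rules were chosen with earlier results of these data known. Gene lists of acute-phase and cell type markers were not used, since 0 identifiers matched a symbol, and no sequence is shown.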

Additional observations from a re-analysis of the deposited data

Results flagged for a closer look

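Values that lay far from the other 4 of their group by Dixon's criterion at 95% were found in 4 of the 16 combinations of gene and group in the cluster, where chance gives about 1 in 20 and 7.73% of the combinations over all tested genes were so placed. Of the 4, 3 came from 1 library, MPS VII day 9 replicate 3, which lay far above its group in 10.6% of all tested genes, so the combinations are not independent. MPS VII day 9 replicate 3 was far above its group in gene A (13.04 CPM, against 0.668 to 3.22 in the rest), gene C (5.57 CPM, against 0.251 to 0.735) and gene D (15.3 CPM, against 1.04 to 2.11). Control day 14 replicate 2 was far above its group in gene A, at 2.88 CPM against 0.908 to 1.47.

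Among the 6 neighbouring genes, MPS VII day 9 replicate 3 was far above its group in those starting at 40723033 (45.9 CPM, against 25.6 to 29.1) and 40770966 (54.4 CPM, against 30.9 to 36.2). Control day 14 replicate 1 held 539 CPM of the gene starting at 40831917, against 443 to 466 in the rest. The gene starting at 40257310 held 0.0835 CPM in MPS VII day 9 replicate 2 and 0.488 CPM in control day 9 replicate 1, and 0 counts in the rest of those groups.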

How the results depend on the processing

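Directions that a comparison of the 3 tested genes had with all libraries held in every fit that gave a value under median-ratio scaling, DESeq2, no filter, halved counts, no robust estimation or only the groups compared. No value is given for gene C from DESeq2 with age in controls, where its adjusted p was missing, for gene C with age in MPS VII dogs from only those groups, where it missed the filter, or for the difference of the age change from only the groups compared, which needs all 4. With only the groups compared, the age change in controls of gene A (1.20) and gene C (0.84) passed the threshold, where 55.0% of tested genes did. In the fit of all groups without MPS VII day 9 replicate 3, an alternative chosen after seeing the data, gene A passed (1.20), where 49.3% of tested genes did. Leaving out 1 library at a time gave log2 fold changes with age in MPS VII dogs of -2.34 to -0.66, -3.02 to -0.72 and -3.08 to -1.30 for genes A, C and D, and for genotype at day 9 of 1.03 to 2.70, -0.38 to 1.68 and 0.44 to 2.14. The difference of the age change ran from -3.52 to -1.86, -3.86 to -1.56 and -3.19 to -1.42. In each of these ranges the end nearest to 0, or past it, is the value without MPS VII day 9 replicate 3. With age in controls the ranges were 0.87 to 1.35, 0.70 to 0.94 and -0.064 to 0.36, and the sign of gene D turned without control day 14 replicate 3 (-0.064) or 5 (-0.023) or control day 9 replicate 5 (-0.0044). The log2 ratio of gene B in controls ran from 1.34 to 2.33 (exact permutation p 0.00794 to 0.119, affected by unequal groups as given above). No paired analysis was possible because the labels give no replicate or litter number. The genes held 167 to 852 counts each over the 20 libraries, and the size of difference detectable at this depth was not measured.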
